A study of Mus musculus with 40 samples.

Results

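Male mice that had been born into the same breeding cage and were put on different diets at weaning were compared with each other, cage by cage, in white fat of the gonadal pad. The animals were chosen by the cage and diet labels alone: of 12 breeding cages, 5 held animals of both post-weaning diets, and all 23 animals of these cages entered, of 40 animals in the series. Of the 23, 12 were fed a high fat diet (HF) after weaning and 11 a low fat diet (LF). Cages 10, 20 and 23 were those of HF fed dams and held 1 HF and 2 LF fed, 3 HF and 1 LF fed, and 3 HF and 3 LF fed animals. Cages 4 and 11 were those of LF fed dams and held 2 HF and 3 LF fed, and 3 HF and 2 LF fed animals.

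All animals were unmodified C57BL/6J males, an inbred laboratory strain, killed at 9 weeks of age after a short fast, and 1 bead array was hybridised per animal. A breeding cage had been set up with 1 male and 2 females, so animals of 1 cage shared a rearing cage, a maternal diet and a sire, but not necessarily a dam. Since each animal was moved to its diet at weaning, the diet and whatever went with the new cage cannot be told apart. The other 17 animals came from 7 cages in which the animals analysed were all of 1 diet, 8 fed HF and 9 fed LF, and served as animals that the comparison within cages had not used.

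White adipocytes store fatty acids as triglyceride, made either from dietary fat or from glucose by de novo lipogenesis. When fat intake is high, the pad enlarges, its cells grow and the matrix around them is rebuilt, and the enzymes that turn glucose into fatty acids are known to be turned down. Mest, an imprinted gene, and Sfrp5, an inhibitor of Wnt signalling, are known markers of pad expansion in mice, and leptin, encoded by Lep, reports the fat store to the brain.

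Cage mates on HF were heavier and longer than those on LF, and no difference in weight was detected at 3 weeks. At 3 weeks, the lowest, median and highest weights were 8.74, 10.585 and 13.36 g in animals that were then fed HF and 8.82, 10.58 and 11.96 g in animals that were then fed LF. The within-cage difference of -0.16 ± 0.35 g (SE, HF minus LF) had an exact permutation p of 0.650 with diets exchanged only inside a cage. The labels give a second weight under the name of weaning. Its values lie far above those at 3 weeks, when the animals were weaned per the study's methods, so it was taken as a later weight, whose time is not known. In it, HF fed animals weighed 28.44, 30.95 and 34.06 g and LF fed animals 22.94, 24.9 and 26.83 g, so that the groups did not overlap. The within-cage difference was 6.05 ± 0.59 g, lay between 4.57 and 6.97 g in the 5 cages, and had an exact permutation p of 4.17e-05, the smallest that the 24000 arrangements can give (0.000167 adjusted over 4 measures).

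**Figure D1:**
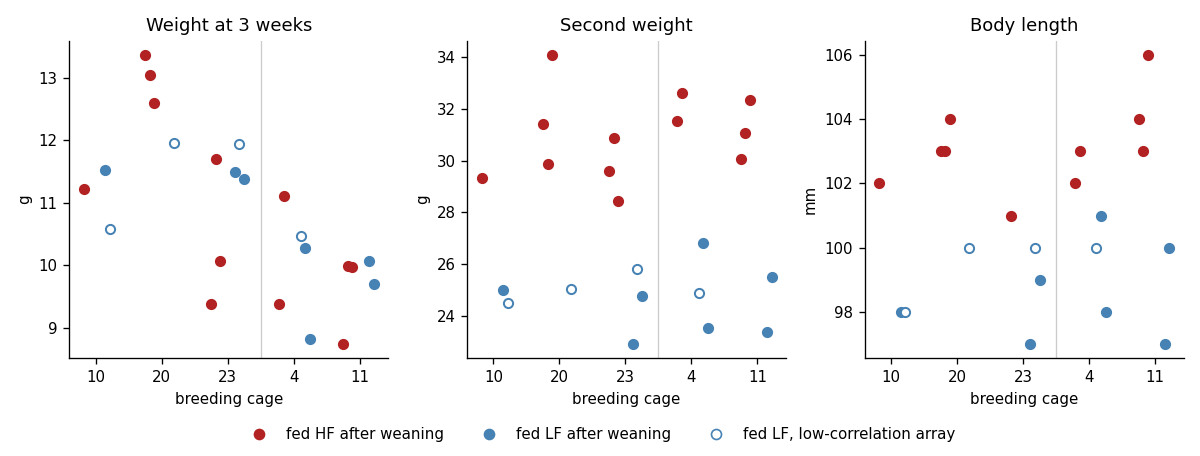
Weight at 3 weeks (g), second weight (g) and body length (mm) of the 23 animals by breeding cage. Each point is 1 animal, HF fed animals stand left of LF fed ones within a cage, open circles are animals whose array correlated poorly with the others, and the vertical line parts cages of HF fed dams (left) from those of LF fed dams. Every HF fed animal was above every LF fed animal in the second weight, between 28.44 and 34.06 g against 22.94 to 26.83 g.

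The body length of HF fed animals was 103.1 ± 1.37 mm (SD, n = 10, with no length for 2 animals of cage 23) and that of LF fed animals was 98.9 ± 1.38 mm (SD, n = 11). The within-cage difference was 3.79 ± 0.63 mm (SE), the same way in 5 of 5 cages, with an exact permutation p of 0.000208, the smallest possible here (adjusted 0.000417). Blood glucose was 205 ± 47.1 mg/dl in HF fed and 202 ± 34.5 mg/dl in LF fed animals (SD, n = 12 and 11). The glucose of HF fed animals was higher in 3 of 5 cages, from 63 mg/dl lower in cage 10 to 42 mg/dl higher in cage 4, and the pooled difference of 1.62 ± 17.4 mg/dl (SE) gave an exact permutation p of 0.927.

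Before the genes are compared, 4 arrays need naming, since they stood apart from the rest and all came from LF fed animals. These were LF fed animal 1 of cage 4, LF fed animal 2 of cage 10, LF fed animal 1 of cage 20 and LF fed animal 2 of cage 23, whose mean correlation with the other arrays was 0.827, 0.891, 0.854 and 0.861, against a median of 0.951 over the 40 arrays. Genes of organs beside or near the pad were bright on them. The geometric mean intensity of 6 epididymis and seminal vesicle genes reached 4604, 4191 and 4607 units on those of cages 4, 10 and 23 and 289 units on that of cage 20, against 90.5 to 659 units in HF fed animals and 91.8 to 256 units in the other 7 LF fed animals. For 8 testis genes the 4 arrays ranged from 1348 to 10040 units, against 80.0 to 579 units in HF fed and 88.0 to 604 units in the other LF fed animals. Intestine genes, 3 in number, stood at 5666 units on the array of cage 20 and at no more than 245 units on any other array of these cages. The 16 adipocyte identity genes were lower on the 4 arrays, between 444 and 610 units, against 1196 to 1823 units in HF fed and 1088 to 1648 units in the other LF fed animals. The LF fed animal of cage 20 was the only one of its diet there, so without the 4 arrays that cage gave no diet difference and 19 animals remained, of which 16 in 4 cages carried the comparison.

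**Figure D2:**
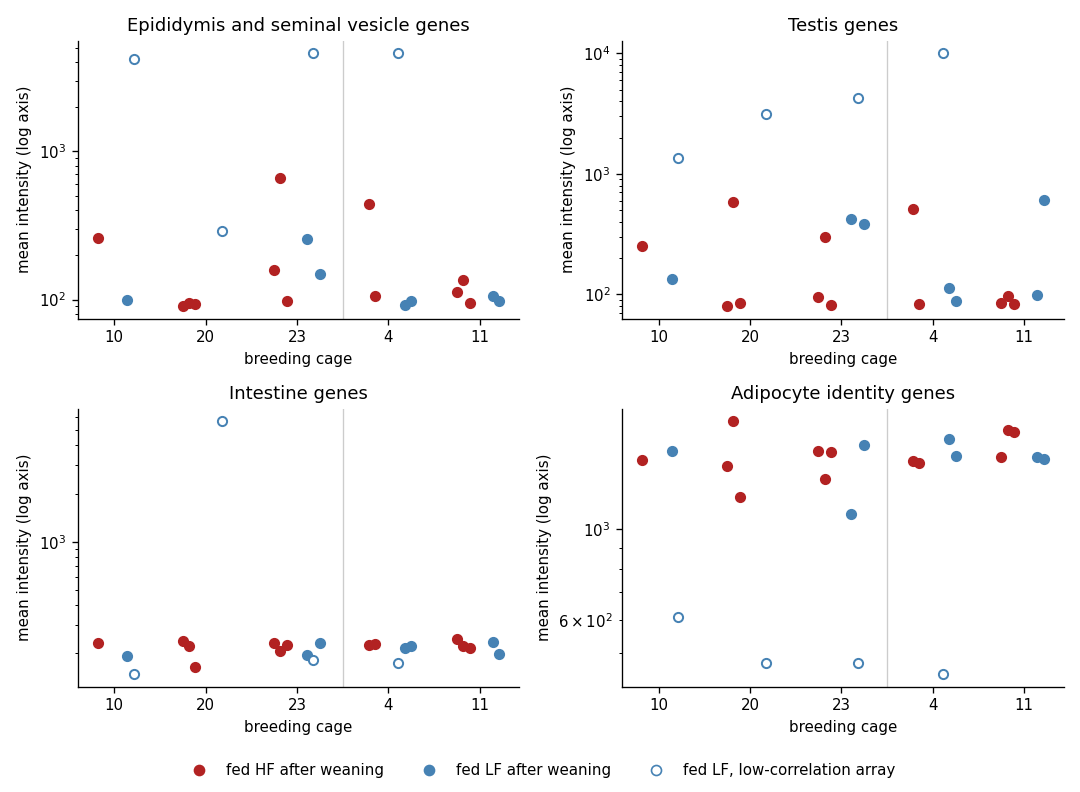
Geometric mean intensity (array units, log axis) of 4 lists of marker genes by breeding cage, 1 point per animal, HF fed left of LF fed, with the 4 low-correlation arrays as open circles and cages of HF fed dams left of the line. The open circles carry the highest testis means (1348 to 10040 units) and the lowest adipocyte identity means (444 to 610 units), and all 4 are LF fed animals.

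Within cages, 392 of 14248 probes (2.75%), of 321 genes, differed between HF and LF fed animals at an adjusted p under 0.05 (limma with cage as a fixed block, Benjamini-Hochberg over all probes). Of these, 349 (2.45% of probes tested) were higher and 43 (0.302%) lower in HF fed animals. By 1 probe per gene, 285 of 9797 genes were called (2.91%). Without the 4 low-correlation arrays, 99 probes were called (0.695%), 50 higher and 49 lower, and 69 genes by 1 probe each (0.704%). The number of calls therefore fell and their split moved once these arrays were left out. No called probe (0 of 392) changed sign without the 4 arrays. The second fit used only animals of the first, which chose these probes, so the kept signs are a description. The median log2 difference of the 349 higher probes was 0.37 without the 4 arrays and 0.64 with them, and that of the 43 lower probes -0.45 and -0.67.

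The count also rested on single animals. Leaving out 1 animal at a time gave from 66 to 2271 called probes. The count moved by more than 1.5 times when the animal left out was LF fed animal 1 of cage 20 (66), HF fed animal 1 of cage 10 (74), HF fed animals 2 and 1 of cage 4 (89 and 138), HF fed animals 3 and 1 of cage 23 (110 and 121), LF fed animals 2 and 1 of cage 23 (124 and 139), LF fed animal 2 of cage 10 (178), HF fed animals 3 and 1 of cage 11 (224 and 249), LF fed animal 1 of cage 11 (226), or HF fed animals 2 and 1 of cage 20 (232 and 240). It went up to 820, 1152 and 2271 without LF fed animal 2 of cage 4, LF fed animal 1 of cage 10 and LF fed animal 3 of cage 23.

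What follows is therefore built on the 57 probes called both with and without the 4 arrays, which made up 14.5% of the first list and 57.6% of the second. They belong to 45 genes, 33 higher and 12 lower in HF fed animals. Genes among them that the naming rule does not cover are named because they are in this set, after their values were seen. Values are given for each gene's probe of smallest p, in array units, as lowest, median and highest, and log2 differences are HF minus LF with their standard error. Since the background was not subtracted, folds of dim probes are too small. In bulk tissue, fewer cells of a type and less RNA per cell cannot be told apart.

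Genes tied to pad expansion were higher in HF fed cage mates. Mest, whose product is an enzyme-like protein of the endoplasmic reticulum, had 291, 611 and 1154 units in HF fed and 98.0, 208.5 and 438.6 units in LF fed animals, and 8 of the 12 HF fed animals were above every LF fed one. Its log2 difference was 1.60 ± 0.24 (adjusted p = 0.0042), and 1.16 ± 0.17 (adjusted p = 0.0033) without the 4 arrays, where LF fed animals had 199.7, 329.9 and 438.6 units. All 3 probes of Mest were called both ways, with log2 differences of 1.60 to 1.93 with all arrays.

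Slc5a7, which encodes a choline transporter best known from cholinergic neurons, separated the diets nearly completely. It had 105, 227 and 576 units in HF fed animals, above background in 12 of 12, and 70.4, 75.2 and 112.6 units in LF fed animals, above background in 3 of 11. Its log2 difference was 1.53 ± 0.20 (adjusted p = 0.0011), and 1.46 ± 0.24 (adjusted p = 0.0062) without the 4 arrays. Against LF fed animals mostly at background, these are differences from a floor.

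Trp53inp2, which takes part in autophagy, did not overlap between the diets: 1170, 1680 and 2744 units in HF fed and 308.3, 957.9 and 1128.3 units in LF fed animals. The log2 difference was 1.35 ± 0.21 (adjusted p = 0.0048), and 0.99 ± 0.14 (adjusted p = 0.0015) without the 4 arrays. Groups that did not overlap were found for 4 of 14248 probes (0.0281%), those of Trp53inp2, Pcolce2, Epdr1 and Alg14, a subunit of an enzyme that builds N-linked glycans, and Epdr1 was called only with all arrays.

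Of the 13 measured genes on the list of adiposity-linked expansion genes, 13 were higher in HF fed animals and 7 were called (Sfrp5, Slc5a7, Trp53inp2, Peg3, Lep, Mest and Npr3), with a median log2 difference of 0.76. Over all 9797 genes, against which this and the lists below are to be read, 6057 were higher and 2.91% called, with a median of 0.06. The list was drawn up with earlier results of these animals known, so its count is not independent evidence of a direction. Without the 4 arrays 11 of 13 were higher, with a median of 0.51, against 5126 of 9797 genes higher, 0.704% called and a median of 0.01 over all genes, and 3 were called (Slc5a7, Trp53inp2 and Mest). Sfrp5 had a log2 difference of 1.24 ± 0.23 (adjusted p = 0.013) with all arrays and of 0.85 ± 0.22 (adjusted p = 0.091) without the 4.

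Lep followed the same course. Its values were 6398, 11990 and 20988 units in HF fed and 1816.3, 4920.6 and 13088 units in LF fed animals, with overlap between the groups. Its log2 difference of 1.25 ± 0.29 (adjusted p = 0.028) was 0.65 ± 0.20 (adjusted p = 0.21) without the 4 arrays. Leaving out single animals ended the call in 8 of 23 cases.

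Several matrix genes were higher in HF fed cage mates, by less without the 4 arrays. Sparc, a secreted protein that binds collagen, had 6876, 11268 and 14420 units in HF fed and 1796.4, 6622.2 and 10942 units in LF fed animals (log2 difference 1.11 ± 0.20, adjusted p = 0.013). Without the 4 arrays its difference was 0.67 ± 0.15 (adjusted p = 0.049). Pcolce2, which enhances the trimming of procollagen, had 1107, 1524 and 2330 units in HF fed and 240.4, 720.3 and 1101.2 units in LF fed animals, with a log2 difference of 1.44 ± 0.28 (adjusted p = 0.017), and of 0.79 ± 0.16 (adjusted p = 0.031) without the 4 arrays. By the brightest probe of each, the one counted in the lists, Sparc and Pcolce2 were called with all arrays and not without the 4. Of 14 collagens, 13 were higher (6057 of all 9797 genes) and 5 called (Col14a1, Col4a1, Col18a1, Col6a1 and Col4a2; 2.91% of all genes), with a median of 0.62. Without the 4 arrays 13 of 14 were still higher (5126 of all 9797), with a median of 0.25, and 0 were called. Secreted or matrix proteins among the 33 higher genes also included Serpinf1, an inhibitor of vessel growth, and Srpx2.

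**Figure D3:**
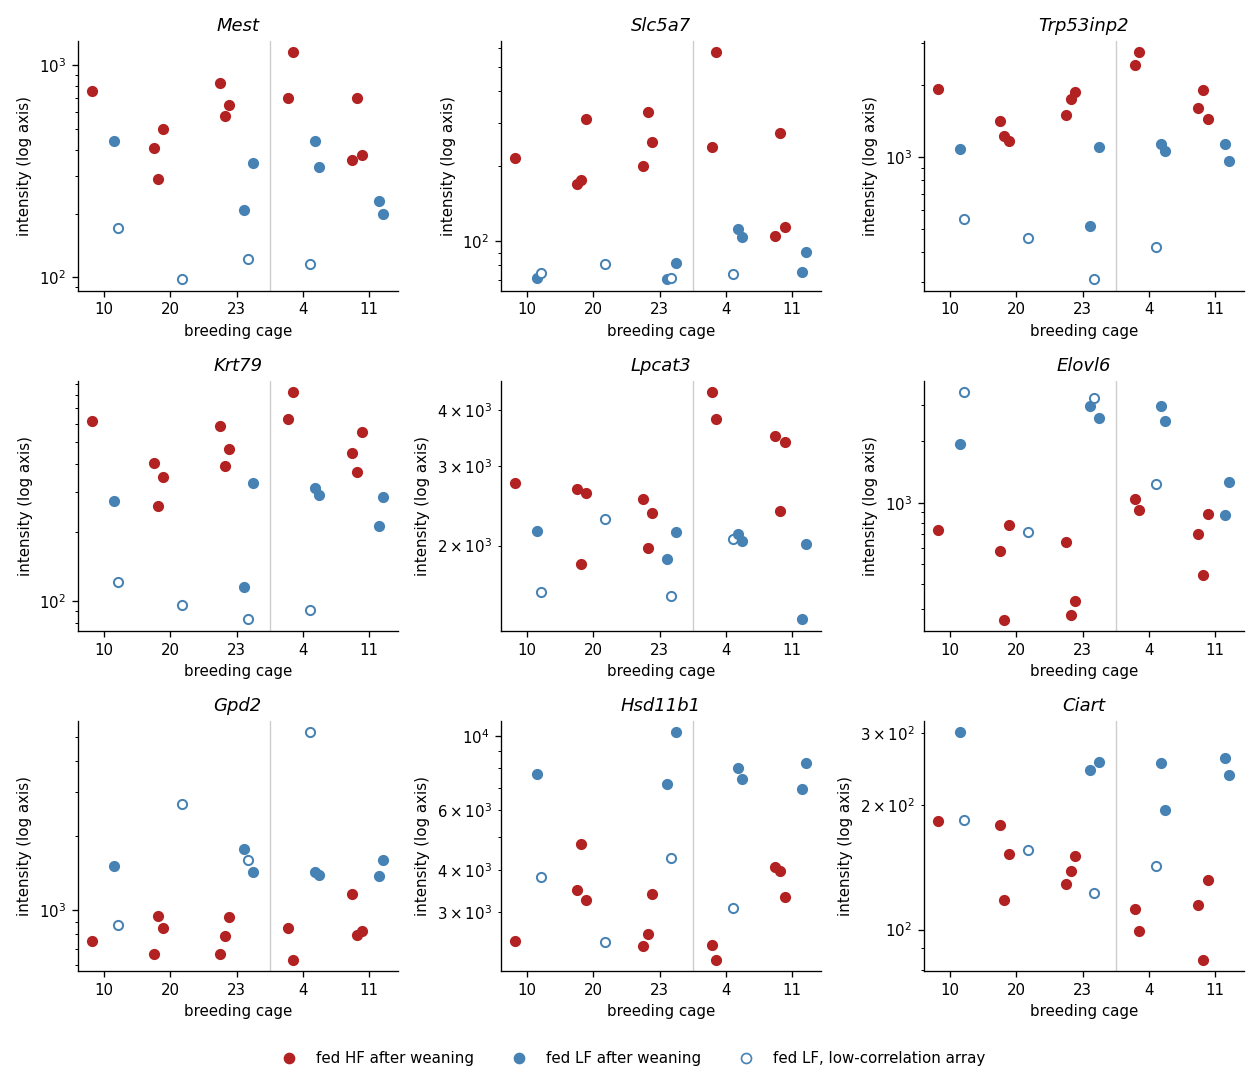
Intensity (array units, log axis) of 9 genes in each of the 23 animals by breeding cage, HF fed left of LF fed, with low-correlation arrays of LF fed animals as open circles and cages of HF fed dams left of the line. Slc5a7 stood at 105 to 576 units in HF fed and 70.4 to 112.6 units in LF fed animals, and Hsd11b1 at 2163 to 4786 units in HF fed animals against 6937 to 10237 units in the 7 LF fed animals shown as filled circles.

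Some enzymes of the path from glucose to fatty acids were lower in HF fed cage mates. Elovl6, which lengthens palmitate to stearate, had 268, 672 and 1041 units in HF fed and 720, 2517.5 and 3483.9 units in LF fed animals, with 9 of 11 LF fed animals above every HF fed one. Its log2 difference was -1.53 ± 0.29 (adjusted p = 0.014), and -1.65 ± 0.30 (adjusted p = 0.016) without the 4 arrays. By cage it was -1.82, -0.55 and -2.91 in cages 10, 20 and 23 and -1.11 and -0.70 in cages 4 and 11. Without cage 23 it was -0.99, with an adjusted p of 0.13.

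Gpd2, the mitochondrial glycerol-3-phosphate dehydrogenase that passes electrons from glycolysis to the respiratory chain, had 632, 811 and 1166 units in HF fed and 875.5, 1515.4 and 5235.3 units in LF fed animals. The highest value was on the low-correlation array of cage 4, and the difference of -1.12 ± 0.20 (adjusted p = 0.013) was -0.90 ± 0.11 (adjusted p = 0.00068) without the 4 arrays. There LF fed animals ran from 1371.1 to 1761.8 units and no longer overlapped with HF fed ones. Without the 4 arrays, groups that did not overlap were found for 26 of 14248 probes (0.182%). Pdk1, a kinase that turns off pyruvate dehydrogenase, was lower by a smaller step, -0.44 ± 0.07 (adjusted p = 0.0070), and -0.49 ± 0.07 (adjusted p = 0.0013) without the 4 arrays. Pdk4, another kinase of that family, known to rise when fat is burnt, went the other way, with a log2 difference of 1.37 ± 0.28 (adjusted p = 0.019), and of 0.83 ± 0.22 (adjusted p = 0.11) without the 4 arrays.

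Further enzymes of this path passed the test only without the 4 arrays. Tkt, the transketolase of the pentose phosphate pathway, had 83.6, 115.4 and 173.8 units in HF fed animals and 154.7, 210.5 and 328.7 units in the 7 other LF fed animals, with a log2 difference of -0.83 ± 0.13 (adjusted p = 0.0055), against -0.54 ± 0.16 (adjusted p = 0.066) with all arrays. Pkm, the last kinase of glycolysis, Pdha1 and Pdhb, subunits of pyruvate dehydrogenase, and Acaca, which makes malonyl-CoA, were also called lower in that fit. Of 15 measured glycolysis and pentose phosphate genes, 9 were higher with all arrays (median 0.08) and 4 without the 4 (median -0.12). Of 16 measured citrate cycle and pyruvate genes, 11 were higher with all arrays (median 0.21) and 7 without the 4 (median -0.03). Of 17 measured lipogenesis genes, 11 were higher with all arrays and 6 without the 4, and the median turned from 0.24 with all arrays to -0.18 without them. The calls on this list were Elovl6 with all arrays, and Elovl6 and Acaca without the 4. Fasn, the fatty acid synthase, had a log2 difference of 0.15 ± 0.33 (adjusted p = 0.78) with all arrays and of -0.51 ± 0.18 (adjusted p = 0.29) without the 4, and Scd1, the stearoyl-CoA desaturase, 0.24 ± 0.11 (adjusted p = 0.15) and 0.05 ± 0.06 (adjusted p = 0.84).

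Mlxipl, the glucose-responsive transcription factor ChREBP, had a log2 difference of -0.27 ± 0.17 (adjusted p = 0.30) with all arrays and of -0.51 ± 0.12 (adjusted p = 0.074) without the 4. Slc2a4, the insulin-responsive glucose transporter, had 0.40 ± 0.28 (adjusted p = 0.34) with all arrays and -0.22 ± 0.12 (adjusted p = 0.61) without the 4. Neither passed the test in either fit. Cidea, a lipid droplet protein abundant in brown and beige fat, was called lower without the 4 arrays (-1.34 ± 0.25, adjusted p = 0.017) and had -0.80 ± 0.31 (adjusted p = 0.11) with them.

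Some sterol-linked genes were higher as well. LXR is a nuclear receptor that senses oxysterols, and of 10 measured LXR target genes 10 were higher and 4 called (Apoe, Apoc1, Pltp and Lpcat3), with a median of 0.59, beside 6057 higher and 2.91% called among all 9797 genes. Without the 4 arrays 9 of 10 were higher and 2 called (Apoc1 and Lpcat3), with a median of 0.28, beside 5126 higher and 0.704% called among all genes. Lpcat3, which loads polyunsaturated fatty acids into phospholipids, had 1816, 2647 and 4380 units in HF fed and 1370.5, 2042.4 and 2287.4 units in LF fed animals (0.58 ± 0.12, adjusted p = 0.022, and 0.62 ± 0.14, adjusted p = 0.049, without the 4 arrays). Apoc1, a small apolipoprotein, had a log2 difference of 0.84 ± 0.15 (adjusted p = 0.011), and of 0.50 ± 0.08 (adjusted p = 0.0070) without the 4 arrays. Hmgcs1, an early enzyme of cholesterol synthesis, was called only without the 4 arrays (0.78 ± 0.10, adjusted p = 0.0011, against 0.52 ± 0.19, adjusted p = 0.10, with all). Of the 16 measured cholesterol synthesis and uptake genes, 14 were then higher, with a median of 0.18, and Hmgcs1 was the call. With all arrays 10 of the 16 were higher and 0 called, with a median of 0.09 beside 0.06 over all genes. In the 17 animals of the other cages, 8 of the 16 were higher.

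Hsd11b1, the reductase that regenerates active glucocorticoid inside fat cells, was lower in HF fed animals in 4 of 5 cages. It had 2163, 3290 and 4786 units in HF fed and 2433.8, 7208.8 and 10237 units in LF fed animals, and the 4 lowest LF fed values were those of the 4 low-correlation arrays. The log2 difference was -0.95 ± 0.22 (adjusted p = 0.032), and -1.48 ± 0.13 (adjusted p = 1.9e-05) without these arrays. There, 7 LF fed animals at 6937 units or more stood above all HF fed ones, a lack of overlap shared by 0.182% of probes. The exception was cage 20, where its difference of 0.64 rested on the single LF fed array. All 3 probes were called both ways. Of 16 measured glucocorticoid activation and target genes, Hsd11b1 was the only one called lower, while Pdk4 and Angptl4 were called higher with all arrays, and Cdkn1a without the 4.

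Some output genes of the circadian clock, which ties metabolism to the time of day, were lower too. Ciart, a repressor within the clock, had 84.5, 130.3 and 183.3 units in HF fed and 122.4, 237.6 and 300.7 units in LF fed animals, close to background on the dimmest arrays. Its log2 difference was -0.66 ± 0.16 (adjusted p = 0.034), and -0.99 ± 0.11 (adjusted p = 0.00037) without the 4 arrays, where the groups did not overlap (0.182% of all probes). A second, brighter probe of Ciart, the one counted in the list, had -0.62 (adjusted p = 0.059) with all arrays and was called without the 4 (adjusted p = 0.0065). Usp2, a clock-controlled deubiquitinase, was brightest on the 4 low-correlation arrays. It had 183, 279 and 493.1 units in HF fed and 266.2, 679.5 and 3497.8 units in LF fed animals (-1.36 ± 0.33, adjusted p = 0.034, and -0.83 ± 0.17, adjusted p = 0.034, without the 4 arrays). Dbp, a transcription factor driven by the clock, was called without the 4 arrays (-0.77 ± 0.16, adjusted p = 0.030) and not with them (-0.35 ± 0.22, adjusted p = 0.30). Of 16 measured clock genes, 10 were higher with all arrays and 4 without the 4. Called in the first case were Clock (higher) and Usp2 and Bhlhe40 (lower), and in the second Usp2, Dbp and Ciart (all lower). Nr1d1, which encodes the repressor REV-ERB alpha, had 0.40 ± 0.23 (adjusted p = 0.24) with all arrays and -0.05 ± 0.13 (adjusted p = 0.92) without the 4.

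The promoter of Ciart is shown because it carries the sequence that the clock's activators bind, the E-box CACGTG, 3 times, in a gene that differed in both fits. The 250 bases before its start, from RefSeq on GRCm38.p6 (chr3:95882229-95882478, minus strand), read as follows, 5′ to 3′, with the E-boxes in capitals.
Ciart: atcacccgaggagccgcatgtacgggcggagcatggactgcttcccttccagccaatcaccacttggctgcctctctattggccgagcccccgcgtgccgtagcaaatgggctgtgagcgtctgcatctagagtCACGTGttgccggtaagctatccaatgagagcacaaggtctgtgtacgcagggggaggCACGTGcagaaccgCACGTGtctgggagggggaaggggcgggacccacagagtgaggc
The E-boxes start 116, 58 and 44 bases before the start of the gene. At least 1 E-box was in this window for 6.02% of 32851 promoters, and 3 or more for 0.0609%. Ciart was picked for its matches: the same search found no E-box for Usp2, Dbp, Bhlhe40 or Nr1d1, where their promoters were at hand. Of the 45 genes, 36 matched the promoter table, and the shares that follow are over its 27025 genes. The E-box was held by 3 (Ciart, Cadps2 and Srpx2, 6.86% of genes) and the D-box TTATGTAA by 0 (0.977%). The ROR element core TAGGTCA was held by 2 (C6 and Serpinf1, 2.55%) and the sterol element core CACCCCAC by 3 (Gcnt2, Krt79 and Pdk1, 2.98%). Each was searched on both strands. A match is a description of the letters, not of binding.

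Several proteins of signal transduction and traffic were among the genes higher in HF fed animals. Rab9b, a small GTPase of late endosomes, had the smallest p of all probes, with 124, 209 and 270 units in HF fed and 72.8, 102.9 and 157.9 units in LF fed animals (1.03 ± 0.10, adjusted p = 4.9e-05, and 0.96 ± 0.11, adjusted p = 0.00052, without the 4 arrays). Its difference lay between 0.90 and 1.26 in the 5 cages. Gnb4, Gnb5 and Gng2, subunits of heterotrimeric G proteins, and Grk5, a kinase that desensitises their receptors, were all in the set, with log2 differences of 0.92 ± 0.12, 0.67 ± 0.11, 0.72 ± 0.13 and 0.77 ± 0.14 (adjusted p between 0.0011 and 0.013). Without the 4 arrays Gnb4 had 0.72 ± 0.09, and Gnb5, Gng2 and Grk5 had between 0.46 and 0.55. Another, brighter probe of Gnb4 was not among the probes called in both fits. Paqr9, a membrane receptor of the adiponectin receptor family, had 1.46 ± 0.24 (adjusted p = 0.0070), and 0.99 ± 0.19 (adjusted p = 0.024) without the 4 arrays.

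Krt79, a keratin, had 262, 455 and 826 units in HF fed and 83.0, 212.7 and 330.0 units in LF fed animals, and 11 of 12 HF fed animals were above every LF fed one (1.56 ± 0.25, adjusted p = 0.0062, and 1.13 ± 0.18, adjusted p = 0.0060, without the 4 arrays). Tuba1a, an alpha-tubulin, had a log2 difference of 1.35 ± 0.26 (adjusted p = 0.014), and of 0.88 ± 0.16 (adjusted p = 0.018) without the 4 arrays. The list of 12 measured cytoskeletal genes as a whole had 7 higher and 5 lower (median 0.03, with Tuba1a and Tuba1b called), and 6 higher and 6 lower without the 4 arrays (median 0.04, with Tuba1a called). C6, a late complement component, had 319, 490 and 622 units in HF fed and 107.2, 224.5 and 414 units in LF fed animals (1.23 ± 0.19, adjusted p = 0.0042, and 0.89 ± 0.12, adjusted p = 0.0013, without the 4 arrays). The other 14 higher genes, from 0.33 for Gpld1 to 1.17 for H4c12, were Atp10a, Rnf11, Wfdc12, Kif1b, Anxa6, Slc2a13, Lhfpl2, Rab38, Gcnt2, Dhx32, H4c12, Gpld1, Tmem45b and Mrps6. Other, brighter probes of Kif1b and Gpld1 were not among the probes called in both fits. Among the lower genes, Gpx3, a secreted glutathione peroxidase, had -0.81 ± 0.19 (adjusted p = 0.029), and -0.94 ± 0.19 (adjusted p = 0.034) without the 4 arrays. The other 5 lower genes, from -0.91 for Oscp1 to -0.22 for Bcl2a1c, were Cadps2, Pcsk4, Oscp1, Nrbp2 and Bcl2a1c.

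Few genes of immune cells were called between cage mates. Over all genes the share called was 2.91% with all arrays and 0.704% without the 4. On lists this short, the counts of calls cannot be told from that share. Of 14 measured macrophage genes, 12 were higher with all arrays and 4 without the 4, and 0 were called in either fit. Adgre1, which encodes the macrophage marker F4/80, had a log2 difference of 0.52 ± 0.25 (adjusted p = 0.18) with all arrays and of -0.04 ± 0.17 (adjusted p = 0.96) without the 4, and Ccl2, a chemokine that draws monocytes, 0.46 ± 0.37 (adjusted p = 0.40) and -0.04 ± 0.40 (adjusted p = 0.99). Of the 8 measured T and B lymphocyte genes 0 were called, and Cxcl9, an interferon-induced chemokine, was called only with all arrays (1.07 ± 0.25, adjusted p = 0.028, against 0.56 ± 0.13, adjusted p = 0.070). Cxcl9 was the only call among 16 measured chemokine and inflammatory cytokine genes, of which 13 were higher with all arrays and 5 without the 4.

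Lists of fat cells themselves were higher with all arrays and close to the background without the 4. For adipocyte identity, 16 of 16 genes were higher with a median of 0.63, and 10 of 16 with a median of 0.10 without the 4 arrays, with 0 calls each time. Adipoq, which encodes adiponectin, had 0.40 ± 0.18 (adjusted p = 0.16) and -0.03 ± 0.07 (adjusted p = 0.93), and Pparg, the master regulator of adipocytes, 0.73 ± 0.26 (adjusted p = 0.099) and 0.12 ± 0.11 (adjusted p = 0.78). Genes of branched-chain amino acid and ketone breakdown were higher in 16 of 16 with all arrays (median 0.35, 1 called) and in 7 of 16 without the 4 (median -0.04). Of the genes for burning fatty acids, many of them targets of PPAR receptors, 22 of 25 were higher (median 0.39), with Ech1, Angptl4 and Acadm called, and 15 of 25 without the 4 arrays (median 0.06, 0 called). Endothelial genes were higher in 13 of 13 (median 0.53, Pecam1 called), and in 12 of 13 without the 4 arrays (median 0.11, 0 called). Caveolae, which coat the surface of fat cells, had 7 of 8 genes higher both ways, with medians of 0.74 and 0.18, and 2 calls (Cavin1 and Cavin3) with all arrays.

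**Figure D4:**
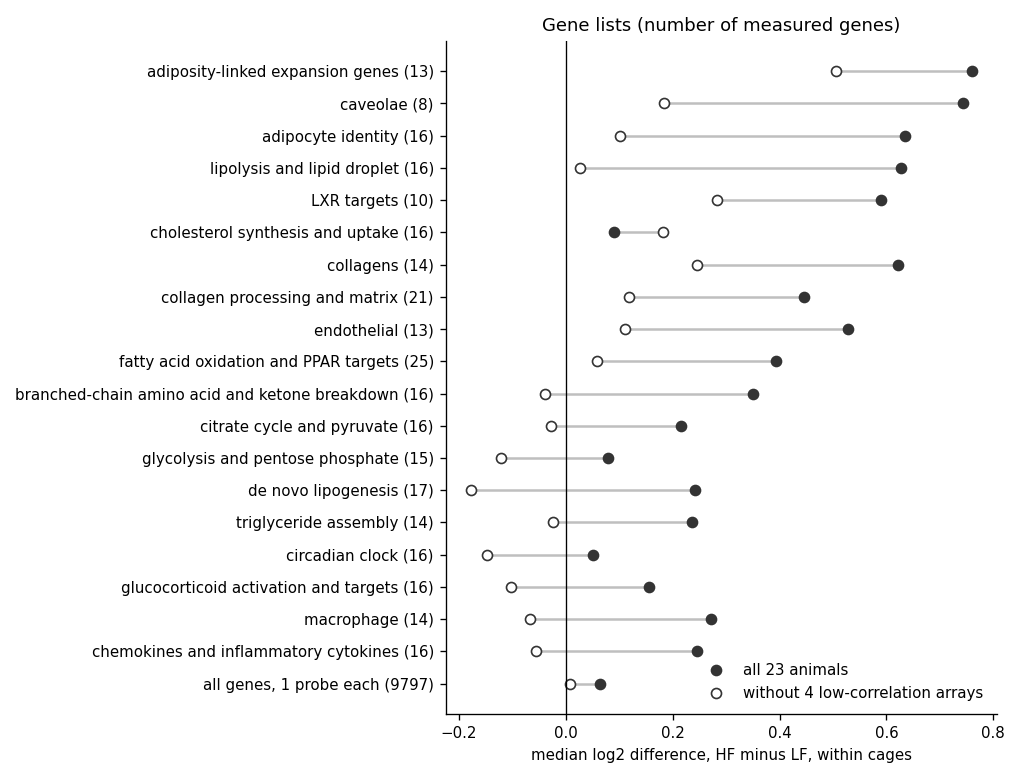
Median within-cage log2 difference (HF minus LF) of 19 gene lists and of all genes, with the number of measured genes in brackets, with all 23 animals (filled circles) and without the 4 low-correlation arrays (open circles). Among the lists shown, the expansion list, drawn up with earlier results of these animals known, stays farthest to the right (0.76 and 0.51). The lipogenesis list crosses 0 (0.24 and -0.18).

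The 3 probes with the most negative differences did not belong to the 45 genes. Cuzd1 had 65.2, 103.1 and 2486.2 units in HF fed and 76.8, 1193.7 and 20988 units in LF fed animals (log2 difference -3.60 ± 0.93, adjusted p = 0.046). It reached 16029 units in LF fed animals outside the 4 arrays too, and its difference without them was -1.98 ± 0.85 (adjusted p = 0.45). Akr1c19 (-2.33 ± 0.54, adjusted p = 0.028) and Tmed6 (-1.72 ± 0.45, adjusted p = 0.046) also lost their calls without the 4 arrays (adjusted p of 0.31 and 0.46). Both were widely spread among LF fed animals, from 68.7 to 2561.3 units and from 90.5 to 1827.6 units. Testis genes were higher in LF fed animals in 8 of 8 both with and without the 4 arrays (median log2 differences of -2.24 and -0.52), and the part of other tissues in these differences was not tested. Skeletal muscle genes were also uneven, between 180 and 2905 units in HF fed and 164 and 381 units in LF fed animals, and highest in HF fed animal 2 of cage 23.

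The difference was of similar direction from cage to cage. Of the 349 higher probes 344, and of the 43 lower probes 37, had the same sign in 5 of 5 cages, against 4138 of all 14248 probes (29%); this share describes the called probes, which the same differences chose. For the 33 higher genes the median difference was 1.04, 1.35 and 1.00 in cages 10, 20 and 23 and 1.10 and 0.62 in cages 4 and 11. For the 12 lower genes it was -0.57, -0.21 and -0.87 in cages 10, 20 and 23 and -1.03 and -0.70 in cages 4 and 11, and the exceptions in sign were 3 genes in cage 20 (Hsd11b1, Gpx3 and Nrbp2).

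No dependence of the post-weaning difference on the maternal diet was detected. The contrast of cages of HF fed dams minus cages of LF fed dams called 0 of 14248 probes (0%), with 577 at an unadjusted p under 0.05. With 3 cages against 2 the test was a small one, and cage 20 entered with its single LF fed array. On the log2 scale the estimates were -1.15 ± 0.54 for Elovl6, 0.23 ± 0.40 for Slc5a7 and 0.27 ± 0.49 for Mest (SE). They were -1.01 ± 0.33 for Hmgcs1, -0.62 ± 0.21 for Lpcat3 and 0.67 ± 0.29 for Ciart (adjusted p between 0.88 and 0.94 for all of these). The 16 cholesterol synthesis and uptake genes had a median of -0.88 in this contrast, beside 0.004 over all genes. Of these, Hmgcs1 had within-cage differences of 0.43, -1.15 and 0.51 in cages 10, 20 and 23. In cages 4 and 11 it had 1.43 and 0.72. How far this median rests on the single LF fed array of cage 20, a low-correlation array, was not tested. Between cages of 1 maternal diet, with post-weaning diet in the fit, the moderated F test of limma called 0 of 14248 probes (0%), with 574 at an unadjusted p under 0.05. The consensus correlation of animals of 1 cage was -0.0523, and the median residual SD was 0.264 on the log2 scale both with and without the cage block. Taking the cage out of the fit gave 285 called probes with diet alone and 587 with diet and maternal diet, of which 231 and 338 were among the 392.

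In the 17 animals of single-diet cages, the 45 genes had the same direction as within shared cages, while other genes and lists did not always. There, 3 of 14248 probes (0.0211%) were called, of Rab9b and C6. Cage and diet cannot be told apart inside a maternal diet in those cages, so any difference between cages makes their p-values too small. Of the 392 probes called within shared cages 379 had the same sign there. Of the 57 probes, 57 had the same sign as within shared cages and 45 also had an unadjusted p under 0.05, against 708 of all 14248 probes at that p in either direction. For the 33 higher genes the median log2 difference was 0.99 within shared cages and 0.51 in single-diet cages. Without low-correlation arrays it was 0.66 within shared cages and 0.42 in single-diet cages. For the 12 lower genes it was -0.83 within shared cages and -0.48 in single-diet cages, and without those arrays -0.86 within shared cages and -0.56 in single-diet cages. The shared-cage values chose these genes and are a description. Testis genes were higher in HF fed animals in 0 of 8 within shared cages and in 8 of 8 in single-diet cages (medians -2.24 and 0.85), and genes of branched-chain amino acid and ketone breakdown in 16 of 16 and in 6 of 16 (medians 0.35 and -0.04). The contrast of shared minus single-diet cages called 0 of 14248 probes (0%), with 1197 at an unadjusted p under 0.05.

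Among single genes, Slc5a7 had a log2 difference of 1.37 in single-diet cages, Mest 1.21, C6 1.17, Trp53inp2 1.10 and Rab9b 0.93, and Elovl6 had -1.78, Hsd11b1 -1.22 and Ciart -0.81. Usp2 was less alike, with -0.33 there, and Tuba1a had 0.47. Among the 45 genes, Rab38, Dhx32 and Mrps6 had 0.19, 0.13 and 0.09 there, against 0.66, 0.46 and 0.45 within shared cages.

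**Figure D5:**
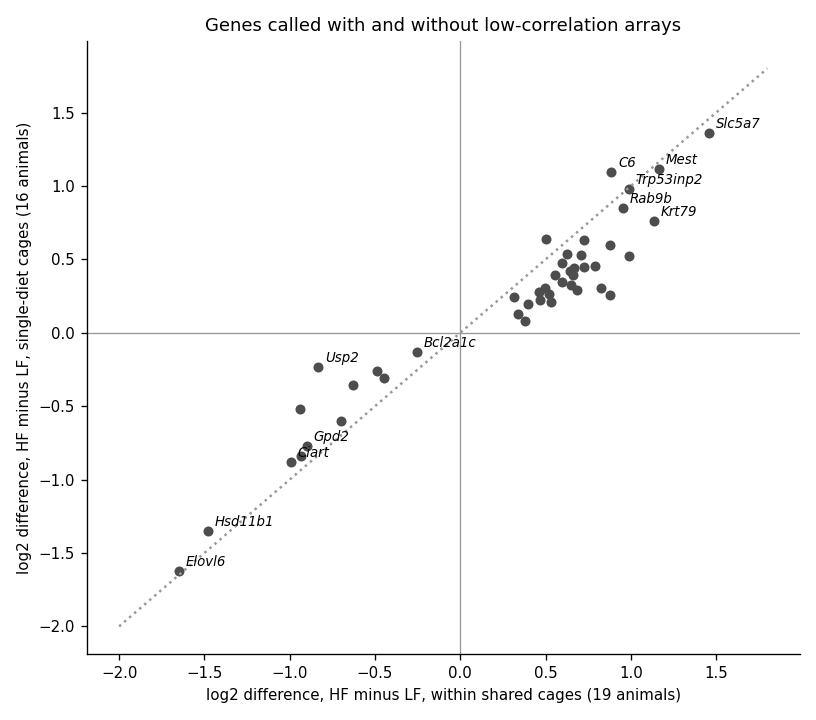
Log2 difference (HF minus LF) of the 45 genes called with and without low-correlation arrays, within shared cages (x axis, 19 animals) and in single-diet cages (y axis, 16 animals), both without low-correlation arrays, with 1 point per gene and the dotted line marking equal values. All 45 genes had the same sign in both sets, from -1.65 and -1.62 for Elovl6 to 1.46 and 1.36 for Slc5a7.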

How the data were processed

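RNA of gonadal white adipose tissue had been hybridised to bead arrays, 1 per animal. The authors deposited intensity values on a linear scale, quantile-normalized over the 40 arrays, and credited BeadStudio, without a version, in their processing notes. These deposited intensity values ran from 47.5 to 43659 units and were taken to log2 without further normalization. Quantile normalization forces 1 distribution on all arrays, so bright transcripts of another tissue can push others down. Whether they did so here was not tested.

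Groups were the labels' post-weaning diets. Of 25697 probes, 23978 had 1 gene symbol in the platform annotation, 0 had several and 1719 were unnamed. A probe was kept when it exceeded background, the 95th percentile of 1305 olfactory and vomeronasal receptor probes of that array (78.06 to 94.28 units), on at least 20 arrays, which kept 14248 probes of 9797 genes. Arrays with a mean correlation under 0.926 (median minus 3 scaled median absolute deviations) were called low-correlation arrays. The number of arrays limits the precision, and nothing in the labels gives the chip or scan of an array.

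Differences were fitted with limma 3.58.1 in R 4.3.3 (lmFit, eBayes with intensity trend, two-sided), cage as a fixed block, on 23 arrays with 17 residual degrees of freedom. The cages of a single diet were fitted with maternal diet as a covariate. Animals of a cage need not share a dam, and the p-values of fits without the block treat them as independent. The study's methods describe pairwise contrasts in a Bayesian framework, with no cage term. Body measures were tested by two-sided exact permutation within cages (Python 3.11.15, numpy 2.4.6). The fits were tested on simulated data. The gene lists (43, with 521 of 742 members kept) were described by counts and medians, by each gene's probe of highest mean. Genes were named by rule: the 12 highest and 12 lowest called genes, up to 3 members of each list by smallest p, and a set of adipose genes whatever their result. The animals and lists were chosen with earlier results of these data known. Alternatives covered the variance model, array weights, the filter, an offset, centring, the block, and arrays and cages left out.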

Additional observations from a re-analysis of the deposited data

Results flagged for a closer look

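Within the 4 groups of maternal and post-weaning diet in the shared cages, of 5 to 7 animals each, the highest and the lowest value of 4 body measures and 24 genes were compared with the rest of their group by Dixon's criterion. Of 112 groups of values, 10 held an animal far from the others, where chance flags about 1 in 20, and 8 of the 10 were low-correlation arrays. LF fed animal 1 of cage 4 stood apart in 6 genes: Trp53inp2 at 422 units, Pdk4 at 197 units, Gnb4 at 106.5 units, Alg14 at 454.9 units and Hsd11b1 at 3085 units were below the other LF fed animals of LF fed dams, and Gpd2 at 5235 units was above them. The LF fed animal of cage 20 stood apart in Elovl6 at 720 units, below the other LF fed animals of HF fed dams, and in Hmgcs1 at 9435 units, above them. Outside the low-correlation arrays, LF fed animal 1 of cage 11 was low in Lpcat3, at 1370.5 units, and HF fed animal 2 of cage 20 was low in Gnb4, at 169.7 units.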

How the results depend on the processing

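The within-cage count of 392 called probes moved by more than 1.5 times to 750 with array weights (a fit that stopped before its tolerance), 135 with no filter on dim probes, 206 with epididymis and testis means as covariates, 99 without the low-correlation arrays, 89 over 5 cage differences, and 65, 121, 64, 34 and 22 without cages 4, 10, 11, 20 and 23. Single arrays left out gave 66 to 2271. It was 285 to 587 under the other settings. The contrast with maternal diet called 0 under every setting run, with each of the 23 arrays left out as well (371 to 1630 at an unadjusted p under 0.05), and cages of 1 maternal diet gave 0 to 2 with single arrays left out. The single-diet cages gave 16 called probes without their low-correlation array and 4 without the maternal term. The shared against single-diet contrast stayed at 0. Over 5 cage means the sign-flip test cannot pass (adjusted p = 0.125 for a second weight difference of 6.01 g and a length difference of 3.67 mm), and no other setting changed a call of a body measure. Of the 27 named probes called with all arrays, 812 of 1124 probe and setting pairs kept the call, 312 lost it and 0 reversed. Krt79, Slc5a7 and Trp53inp2 kept theirs under every setting run. Hsd11b1 was followed here by another of its probes than above (log2 difference -0.99, adjusted p = 0.038 with all arrays). That probe lost its call without 12 of 23 single arrays and Usp2 without 10, although both were called without the 4 low-correlation arrays. Gpd2 and Usp2 lost theirs with the epididymis and testis covariates (adjusted p = 0.090 and 0.14). The causes were not tested, and fits with arrays or cages left out also held fewer animals. Animals were matched through the cage block and the cage differences. Animal by animal, no paired analysis was possible because the labels tie no HF fed animal to a single LF fed cage mate.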
